A study of Mus musculus with 6 samples.

Results

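The 9 genes UPF1, UPF2, UPF3A, UPF3B, SMG1, SMG5, SMG6, SMG8 and SMG9 encode core factors of nonsense-mediated mRNA decay (NMD). They were taken by gene symbol from the isoform tables, in which each of the 9 was found once among 58870 genes, with 95 of 208621 isoforms. RNA-seq was performed on 77-5 cells, a single clone of T-REx-293. T-REx-293 is a HEK293 derivative (human embryonic kidney) that makes the tetracycline repressor, so that genes can be switched on with doxycycline. All samples carried a mouse Ntrk2 (TrkB) minigene built in BAC clone RP23-424E11 and an Rbfox1 gene under doxycycline control. There were 3 samples without treatment (No Dox, labelled control) and 3 samples given doxycycline for 48 h (Dox, labelled Rbfox1 expression), at a dose that the labels give as 0.5 mg/ml and the figure legends of the study in micrograms per ml. No sample received doxycycline without the Rbfox1 gene, so the drug and Rbfox1 cannot be told apart. The organism in the labels is mouse, but the tables list human transcripts.

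NMD removes mRNAs whose translation ends at a premature stop codon, and it also tunes the level of many normal mRNAs. UPF1 is an RNA helicase that acts when the ribosome terminates, and UPF2 links it to UPF3A or UPF3B, which contact the exon junction complexes left on mRNA by splicing. The kinase SMG1, held in a complex with SMG8 and SMG9, phosphorylates UPF1, and phosphorylated UPF1 is bound by the endonuclease SMG6 and by SMG5, which bring about cleavage or decay of the mRNA. Alternative splicing can create premature stop codons, and Rbfox1 is a splicing factor that binds RNA mostly in introns.

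Total expected counts were 59822964 to 65774104 per sample. RBFOX1 rose from 7.53 ± 0.79 TPM (SD, n = 3) to 188.3 ± 1.8 TPM in Dox. TPM is the abundance of a transcript per length, set relative to all transcripts of its sample. Genes known in HEK293 cells, looked up after values were seen, were present, with VIM at 653.9 to 698.0 TPM, KRT18 at 120.1 to 157.0 TPM and NEFL at 51.8 to 66.6 TPM, while NEFM was at 0.45 to 1.21 TPM. Dox replicate 3 stood apart from the other Dox samples. The chi-square of gene counts per degree of freedom was 4.28 to 6.18 in pairs that held it and 2.30 to 3.01 in the other pairs of replicates. None of the sources says whether replicates were separate cultures, so p-values measure the spread between these samples, which may be technical.

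To ask whether the decay machinery differs when Rbfox1 is induced, gene counts were compared by edgeR over all 18264 genes past the filter, which all 9 factors passed. UPF3B and SMG9 rose, UPF1, SMG1, SMG5, SMG6 and SMG8 fell, and UPF2 and UPF3A did not pass the test. Of the 9 factors, 7 were thus called at an adjusted p of 0.05, beside 51.4% of all genes tested (24.9% upward and 26.5% downward). Counts of the factors were high, and among the 4637 genes with at least 20448 counts over all samples, as many as UPF3A had, 68.5% were called, 23.5% upward and 45% downward. The share of factors called was therefore near that of genes of similar depth. Without Dox replicate 3 the number of factors called was again 7. TPM values did not overlap between the groups for 7 of the 9 factors, beside 50.2% of all genes tested. The median log2 fold change was -0.11 over the factors and 0.00 over all genes tested, most of which had fewer counts than the factors. Without regard to sign, the median was 0.18 over all genes tested and 0.13 over the 4637 genes of similar depth. With library sizes in place of TMM scaling, calls over all genes were 5682 upward and 3753 downward in place of 4543 and 4841, 6 of the 7 calls were kept and SMG6 was no longer called (edgeR adjusted p = 0.117).

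**Figure D1:**
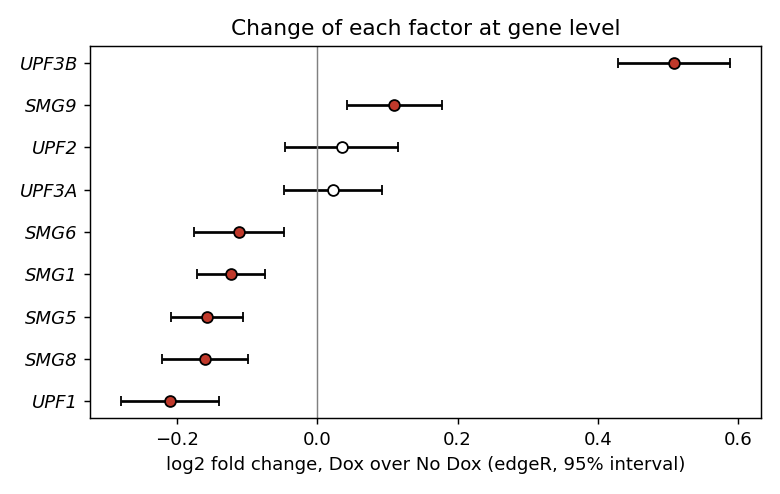
Log2 fold change (x axis, Dox over No Dox, edgeR) of each of the 9 factors, with its 95% interval (bars) from 3 samples per group. Filled points passed an adjusted p of 0.05. UPF3B stands at 0.51, and the other points lie between -0.21 and 0.11.

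UPF3B (ENSG00000125351.11) changed by more than the other 8 factors. Its level was 38.9, 44.6 and 43.1 TPM in the No Dox samples and 60.8, 60.1 and 62.8 TPM in the Dox samples. Every Dox sample was above every No Dox sample. The log2 fold change was 0.51 ± 0.04 (SE, edgeR adjusted p = 3.55e-08), a rise of 42.3%, and 14.2% of all genes tested had a larger change in either direction. It was the only factor still called when edgeR (glmTreat) was asked for more than a 1.2-fold change. Without Dox replicate 3 the log2 fold change was 0.49.

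UPF3A (ENSG00000169062.15), the paralog of UPF3B and a weaker activator of decay, showed a different picture on each scale. Its level was 44.9, 47.6 and 47.4 TPM in No Dox and 51.0, 52.2 and 53.2 TPM in Dox, so the groups did not overlap. Its counts, however, summed to 10006 in No Dox and 10442 in Dox, and the log2 fold change of counts was 0.02 with a 95% interval of -0.05 to 0.09 (edgeR adjusted p = 0.638). On the scale of log2(TPM + 0.5) the difference was 0.16 and passed the test (limma adjusted p = 0.00781). UPF3A reads were assigned to isoforms of a shorter mean length in Dox, with values given under its isoforms. TPM per read is higher for a shorter isoform. TPM also carries no TMM scaling. With library sizes in place of TMM the log2 fold change of UPF3A counts was 0.07 (edgeR adjusted p = 0.117). What each adds to the difference between the scales was not tested. The ratio of UPF3B to UPF3A, both in TPM, lay between 0.87 and 0.94 without doxycycline and between 1.15 and 1.19 with it, without overlap. The exact permutation test (two-sided) gave p = 0.1, below which a design of 3 against 3 cannot go.

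UPF1 (ENSG00000005007.12) was at 45.8, 46.7 and 46.2 TPM in No Dox and at 43.4, 42.1 and 39.1 TPM in Dox. All Dox samples were lower, and Dox replicate 3 was the lowest. The log2 fold change was -0.21 ± 0.04 (SE, edgeR adjusted p = 0.000125), so the helicase transcript fell by 13.6%. On the log2 scale the change was -0.16 without Dox replicate 3 and -0.16 with library sizes in place of TMM. By log2(TPM + 0.5) it was -0.15, and it passed the test each time. UPF2 (ENSG00000151461.20) was at 16.2, 17.4 and 18.2 TPM in No Dox and at 18.1, 17.2 and 18.9 TPM in Dox, with overlapping groups. Its log2 fold change was 0.03 with a 95% interval of -0.05 to 0.12 (edgeR adjusted p = 0.514), which leaves room for a change of up to 0.12.

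The members of the kinase complex did not move in a common direction. SMG1 (ENSG00000157106.16) was at 34.9, 34.9 and 35.8 TPM in No Dox and at 32.6, 32.6 and 33.4 TPM in Dox. SMG8 (ENSG00000167447.12) was at 27.5, 27.4 and 27.6 TPM in No Dox and at 24.3, 25.1 and 25.5 TPM in Dox. In both genes all Dox samples were below all No Dox samples. The log2 fold change was -0.12 ± 0.02 for SMG1 and -0.16 ± 0.03 for SMG8 (SE, edgeR adjusted p = 0.000555 and 0.000397). SMG9 (ENSG00000105771.14), the partner of SMG8, was at 97.7, 99.7 and 96.2 TPM in No Dox and at 105.6, 108.3 and 100.3 TPM in Dox. Its lowest Dox value, again replicate 3, lay just above the highest No Dox value. The log2 fold change of SMG9 was 0.11 ± 0.03 (SE, edgeR adjusted p = 0.0142). Its call was lost when No Dox replicate 1, No Dox replicate 3 or Dox replicate 2 was left out (edgeR adjusted p = 0.0569, 0.0703 and 0.0811).

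Of the factors that act on phosphorylated UPF1, SMG5 (ENSG00000198952.8) was at 100.9, 99.5 and 99.1 TPM in No Dox and at 94.99, 90.2 and 89.5 TPM in Dox. The groups did not overlap, and the log2 fold change was -0.16 ± 0.03 (SE, edgeR adjusted p = 9.09e-05). The endonuclease gene SMG6 (ENSG00000070366.14) was at 17.7, 19.9 and 18.3 TPM in No Dox and at 18.2, 18.3 and 16.0 TPM in Dox. These values overlapped, and the fall in counts (log2 fold change -0.11 ± 0.03, edgeR adjusted p = 0.00936) did not pass on the TPM scale (limma adjusted p = 0.342).

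**Figure D2:**
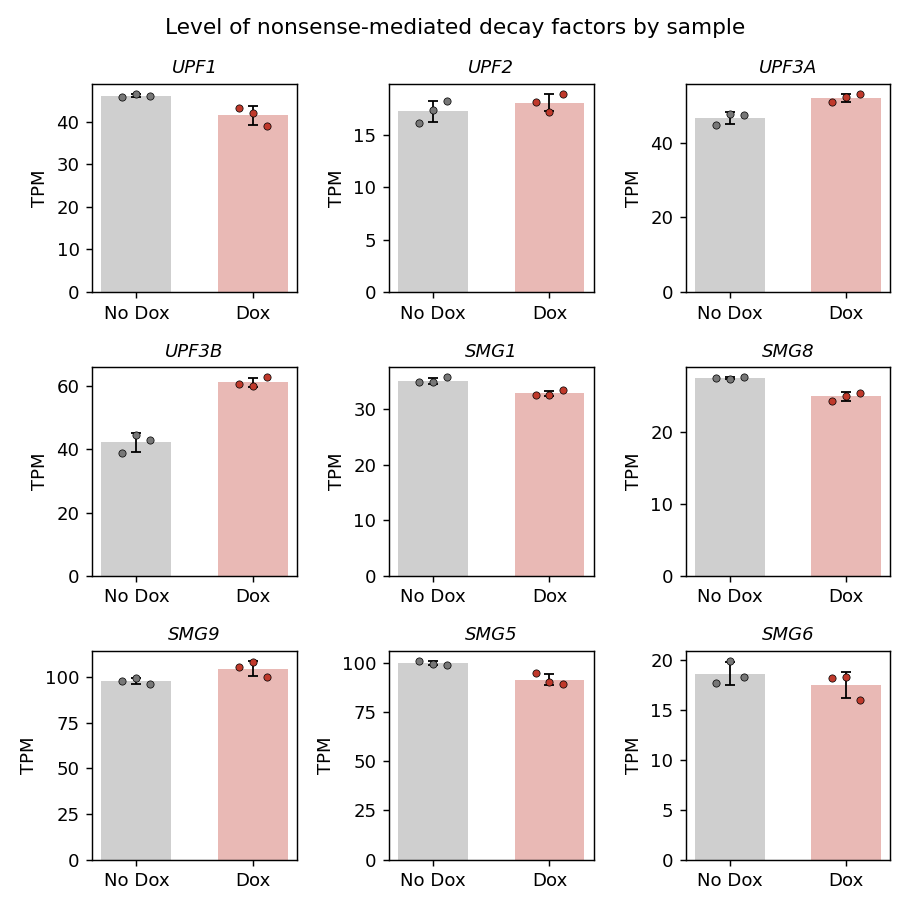
Level in TPM (y axis, from 0) of each factor. Points are samples, bars are means of the 3 samples of a group and error bars are SD. Dox samples of UPF3B lie between 60.1 and 62.8 TPM, above the No Dox samples, while groups of UPF2 and SMG6 overlap.

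By TPM, SMG1 and SMG8 kept their rank in both groups, and the other factors changed place, mostly with a neighbour. In No Dox, SMG5 (99.8 ± 0.94 TPM, SD) and SMG9 (97.8 ± 1.7 TPM) were at the top with overlapping samples, followed by UPF3A and UPF1, whose samples also overlapped, by UPF3B, SMG1 and SMG8, and by SMG6 and UPF2, which overlapped at the bottom. In Dox, SMG9 (104.7 ± 4.1 TPM) was above SMG5 (91.6 ± 3.0 TPM), and UPF3B stood in the third place in place of the fifth, with no overlap with its neighbours SMG5 and UPF3A. UPF2 and SMG6 still overlapped at the bottom. Much of the SMG9 level came from 1 short isoform model. SMG9-210, of 538 bases, held 46.0 ± 0.70% of the TPM of the gene in No Dox with 2136 of its 17291 counts. Without SMG9-210 the gene would stand at 52.8 ± 1.1 TPM in No Dox, still second, and at 58.3 ± 1.4 TPM in Dox, below UPF3B.

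Isoforms were then compared, since the study used these data to examine isoform expression. Where isoforms have exons in common, RSEM assigns their reads by a model, and values of single isoforms are therefore estimates. Of the 95 isoforms of the 9 genes, 44 passed the filter on low counts and 23 had no count in any sample. By limma-voom, 2 of the 44 rose and 4 fell, beside 6.19% and 6.44% of all 72438 isoforms tested. Those that rose were UPF3B-202 and SMG6-215, and those that fell were UPF1-207, SMG1-202, SMG5-201 and SMG8-201. The isoform percentage, which is the share of the TPM of a gene given to an isoform, did not overlap between the groups for 12 of the 44, beside 24.8% of all isoforms tested. Without a No Dox sample or Dox replicate 1 the isoform calls numbered 3, without Dox replicate 2 they numbered 2 and without Dox replicate 3 they numbered 5. Only the UPF3B-202 call held in each of the 6 analyses that left out a sample, among these 6 isoforms.

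The rise of UPF3B was carried by a single isoform. UPF3B-202, of 2335 bases, was at 22.4, 27.4 and 26.7 TPM in No Dox and at 48.5, 47.0 and 46.4 TPM in Dox. Its lowest Dox value was well above its highest No Dox value, with a log2 fold change of 0.89 ± 0.07 (SE, limma-voom adjusted p = 0.000547). UPF3B-201, which at 2378 bases is 43 bases longer, was at 15.2, 15.7 and 15.5 TPM in No Dox and at 11.5, 11.9 and 15.3 TPM in Dox. Dox replicate 3 was close to the No Dox samples, and the log2 fold change of -0.28 ± 0.11 did not pass (SE, limma-voom adjusted p = 0.163). Without that sample the log2 fold change of UPF3B-201 was -0.41 and passed (limma-voom adjusted p = 0.0136). In TPM, UPF3B-202 gained 21.8 while the gene as a whole gained 19.0.

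As a share of the gene, UPF3B-202 went from 57.6, 61.4 and 61.8% in No Dox to 79.7, 78.1 and 73.9% in Dox, and UPF3B-201 from 39.0, 35.2 and 36.0% to 18.8, 19.8 and 24.4%. Neither isoform had overlapping groups. The ratio of UPF3B-202 to UPF3B-201 was 1.48, 1.74 and 1.72 in No Dox and 4.23, 3.94 and 3.03 in Dox samples (exact permutation test, two-sided, p = 0.1, the smallest possible). Both isoforms changed differently from the rest of the gene by the test of isoform usage (limma diffSplice adjusted p of the gene = 1.71e-06). These are not separate results, since for each isoform the rest of the gene was mostly the other. The other 3 isoforms of UPF3B held at most 2.08% each, as a mean of a group. Reads that tell UPF3B-201 from UPF3B-202 come from the few places where these models differ, and exons were not compared directly.

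**Figure D3:**
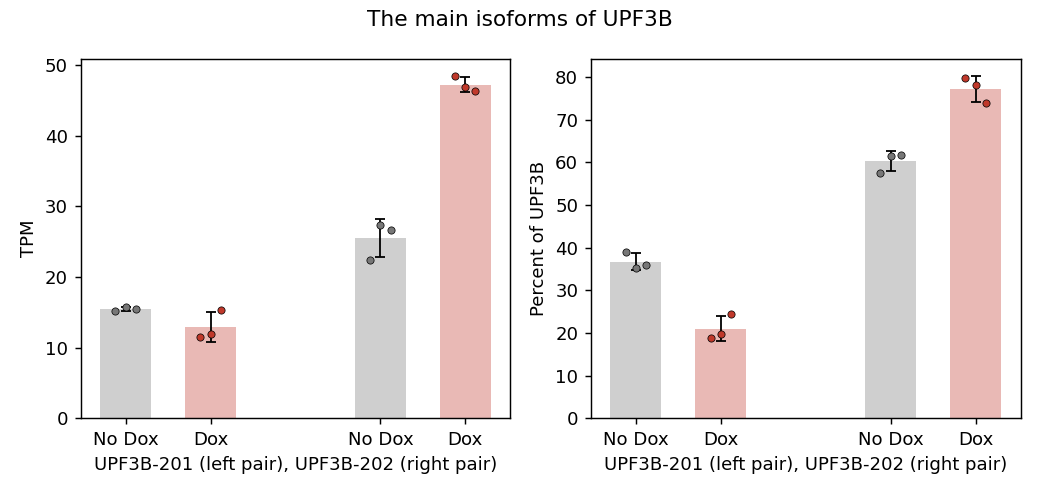
Level in TPM (left panel) and percent of the gene (right panel) of UPF3B-201 and UPF3B-202. Points are samples, bars (from 0) are means of 3 samples and error bars are SD; UPF3B-202 went from 22.4 to 27.4 TPM in No Dox to between 46.4 and 48.5 TPM in Dox, and UPF3B-201 of Dox replicate 3 lies near the No Dox samples.

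Isoform usage changed in 4 of the 9 genes by diffSplice, UPF3B, SMG6, UPF1 and UPF3A, beside 27.5% of 12328 genes tested. By the F test the same 4 genes were called, beside 25.7% of genes. With diffSpliceDGE of edgeR only UPF3B was called (adjusted p = 0.000145), beside 9.91% of genes. The isoform test of diffSplice called 8 isoforms of these 4 genes, beside 11% of isoforms tested. These shares are over genes and isoforms of all depths, and most genes had fewer counts than the factors. No share of usage calls was computed at the depth of the factors.

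In UPF3A a pair of isoforms, UPF3A-201 and UPF3A-202, had a lower share in Dox. The longest isoform, UPF3A-212 of 2423 bases (below the limit for named isoforms), held 9.77 ± 0.46% in No Dox and 9.47 ± 0.35% in Dox (SD, n = 3), with overlap. UPF3A-202, of 2370 bases, went from 25.6, 26.6 and 25.6% of the gene in No Dox to 20.2, 21.4 and 21.8% in Dox, without overlap. UPF3A-201, which is 135 bases shorter than UPF3A-202, went from 15.4, 10.6 and 14.6% to 9.78, 10.4 and 9.45%. Here No Dox replicate 2 lay just above the Dox samples. UPF3A-204, of 1791 bases, was at 24.9 ± 0.63% and 27.1 ± 2.0% (SD, n = 3) and overlapped between the groups. UPF3A-209, of only 494 bases, went from 7.19 ± 0.79% to 10.2 ± 1.6%, a share that rests on 140 counts in No Dox and 220 in Dox. None of these 4 passed the limma-voom test for its own level (adjusted p = 0.0953 to 0.260), while UPF3A-201, UPF3A-202 and UPF3A-204 passed the isoform test of usage (diffSplice adjusted p = 0.0127, 0.0250 and 0.0452). The usage call of the gene (diffSplice adjusted p = 0.0365) was lost in 4 of the 6 analyses that left out a sample, with an adjusted p of 0.161 and 0.209 without No Dox replicates 1 and 3 and of 0.0927 and 0.0564 without Dox replicates 2 and 3.

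The mean length of UPF3A transcripts, weighted by TPM, was 1828, 1769 and 1816 bases in No Dox and 1664, 1685 and 1726 bases in Dox. All Dox samples were shorter, by 113 bases on average (exact permutation test, two-sided, p = 0.1, the smallest possible). The groups also did not overlap when isoforms were weighted by counts, with a difference of -65.7 bases. For UPF1 the mean length differed by -72.2 bases and for SMG9 by 46.6 bases without overlap between the groups (exact p = 0.1 each), but both overlapped when weighted by counts. With only isoforms of at least 5% of the gene, the UPF1 difference turned positive with overlap, and UPF3A, SMG9 and UPF3B did not overlap. For the 6 genes other than UPF1, UPF3A and SMG9 the groups overlapped when all isoforms were used, and UPF3B turned from 11.9 to -7.08 bases with the larger isoforms only.

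The usage call of UPF1 (diffSplice adjusted p = 0.0212) was lost without No Dox replicate 2 or 3 (adjusted p = 0.103 and 0.129). The largest isoform of the gene, UPF1-201, held 71.6 ± 0.91% in No Dox and 72.8 ± 1.8% in Dox (SD, n = 3). UPF1-207, which is 37 bases shorter, went from 15.4, 14.9 and 15.2% to 13.6, 12.3 and 10.8%. All Dox samples were lower, and its level fell by 0.48 on the log2 scale (limma-voom adjusted p = 0.0359). That call was lost without any of the No Dox samples or without Dox replicate 2 (limma-voom adjusted p = 0.0927 to 0.103). UPF1-210, of 3084 bases, falls outside the rule for named isoforms and is given because it passed the isoform test of usage (diffSplice adjusted p = 0.0152). In that test it had the smallest p of the isoforms of UPF1. It held 1.48 ± 0.49% in No Dox and 3.12 ± 1.1% in Dox, on 263 and 505 counts. Its TPM overlapped between the groups, and its own level did not pass (limma-voom adjusted p = 0.155).

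In SMG6 the main isoform, SMG6-201, was at 58.5 ± 4.4% and 59.5 ± 4.2% (SD, n = 3). SMG6-207, of 2426 bases, was at 34.7 ± 2.1% in No Dox and 29.2 ± 4.1% in Dox, with overlap. SMG6-215, of 2419 bases, went from 3.97, 2.29 and 4.22% to 8.41, 6.56 and 9.79% without overlap, on 191 counts in No Dox and 427 in Dox. Its level rose by 1.17 ± 0.24 on the log2 scale (SE, limma-voom adjusted p = 0.0236). The call was lost when No Dox replicate 1, No Dox replicate 2, Dox replicate 1 or Dox replicate 3 was left out (limma-voom adjusted p = 0.0617 to 0.0737). The usage call of SMG6 was lost when only isoforms of at least 10% of the gene were tested (diffSplice adjusted p = 0.176), which leaves out SMG6-215.

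The remaining genes kept the shares of their main isoforms within narrow limits. SMG1-202, the transcript model of 16115 bases, held 86.8 ± 1.1% and 87.3 ± 0.46% of SMG1 (SD, n = 3) and fell by 0.10 on the log2 scale, SMG5-201 held 85.1 ± 0.31% and 85.5 ± 0.45% and fell by 0.13, and SMG8-201 held 96.5 ± 1.4% and 97.3 ± 0.61% and fell by 0.14. Their limma-voom adjusted p was 0.0284, 0.0120 and 0.0422. These falls were close to those of their genes. The call of SMG8-201 was lost without any single sample (limma-voom adjusted p = 0.0579 to 0.136), that of SMG1-202 when No Dox replicate 2, No Dox replicate 3, Dox replicate 1 or Dox replicate 2 was left out (0.0738 to 0.0906), and that of SMG5-201 without Dox replicate 2 (0.0509). UPF2-202 held 88.4 ± 0.98% and 88.2 ± 0.98% of UPF2 and UPF2-203 held 11.5 ± 1.1% and 11.8 ± 0.98%. In SMG9, SMG9-210 was at 46.0 ± 0.70% and 44.3 ± 1.1%, and SMG9-211 went from 28.8, 31.2 and 31.0% to 31.6, 31.9 and 32.0%. For UPF2, SMG1, SMG5, SMG8 and SMG9 the usage test did not pass (diffSplice adjusted p = 0.109 to 0.878), although SMG8 passed without Dox replicate 3 (diffSplice adjusted p = 0.00785).

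**Figure D4:**
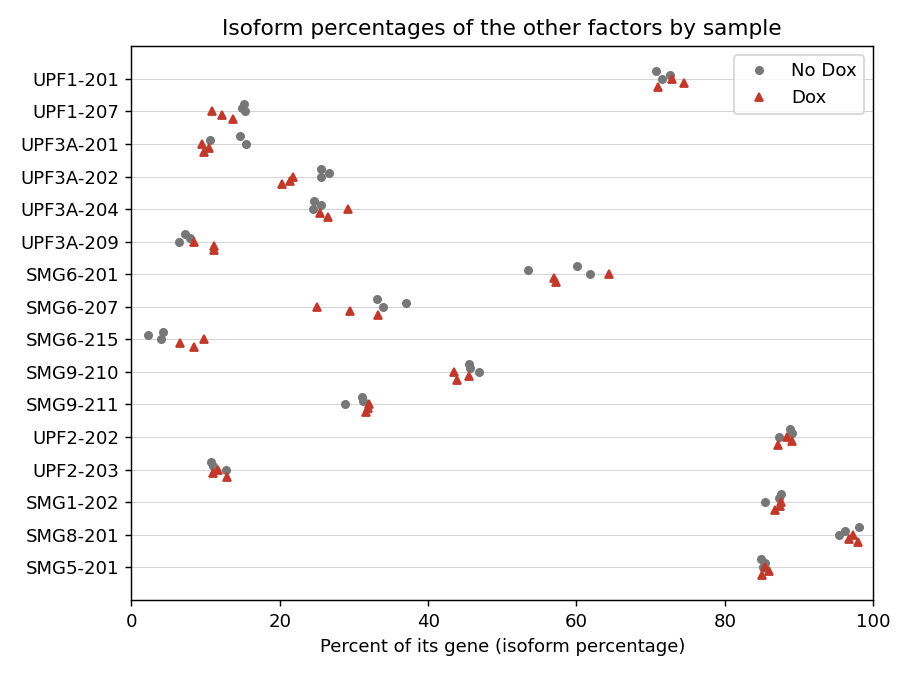
Percent of its gene (x axis) of each named isoform of the 8 factors other than UPF3B, with No Dox samples as circles and Dox samples as triangles. UPF3A-202 and UPF1-207 lie lower in all Dox samples and SMG6-215 higher, and the main isoforms of SMG1, SMG5 and SMG8 overlap between the groups.

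SMG1 has pseudogenes in the human genome that were copied from part of the gene, and reads can be shared among them. The tables held 7 of them, SMG1P1 to SMG1P7, whose counts together came to 26.3 to 27.6% of those of SMG1 in No Dox and 27.4 to 28.3% in Dox. SMG1P7 rose from 5.06, 4.67 and 4.78 TPM to 9.39, 8.62 and 9.28 TPM (log2 fold change 0.87 ± 0.08, SE, edgeR adjusted p = 1.11e-07). SMG1P1 went from 15.8, 11.8 and 14.9 TPM to 11.97, 11.8 and 10.9 TPM and fell by 0.35 on the log2 scale (edgeR adjusted p = 0.000656), although its groups overlapped and the fall did not pass on the TPM scale (limma adjusted p = 0.0677). SMG1P2, SMG1P3, SMG1P4, SMG1P5 and SMG1P6 had log2 fold changes from -0.40 to -0.02 and did not pass. When pseudogene counts were added to those of their parent, SMG1 still fell, by 0.11 on the log2 scale (edgeR adjusted p = 0.000776). UPF3AP1 and UPF3AP3, pseudogenes of UPF3A, had 33.4 and 38.0 counts over all samples and were not tested, and UPF3AP2 had 15.6.

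Other genes of the pathway were listed from background knowledge, and all 79 were tested, of which 18 (22.8%) rose and 34 (43.0%) fell. These shares were near the 23.5% upward and 45% downward among genes with at least 20448 counts. Many of the listed genes had fewer counts than that, among them most of the listed targets of NMD, such as DDIT3 and GADD45A. For these genes the depth is not matched. Over all genes tested the shares were 24.9% upward and 26.5% downward. The counts below are given as a description of the lists only. Of 10 genes of the exon junction complex, which marks spliced mRNA and is contacted by UPF3 proteins, 7 fell and 2 rose, with a median log2 fold change of -0.12. With library size only 5 fell, and with a minimum fold of 1.2 none of the 10 was called (0 up, 0 down). MAGOH fell from 196.9 ± 6.7 to 163.3 ± 4.8 TPM (SD, n = 3), ACIN1 from 200.1 ± 2.9 to 183.2 ± 2.5 TPM and the helicase gene EIF4A3 from 159.1 ± 3.6 to 140.7 ± 3.1 TPM. MAGOHB, the near-identical paralog of MAGOH with which it can share reads, had a log2 fold change of 0.09 (edgeR adjusted p = 0.0455), a call lost with DESeq2 (adjusted p = 0.063) and when No Dox replicate 1, No Dox replicate 2, Dox replicate 2 or Dox replicate 3 was left out (edgeR adjusted p = 0.0933 to 0.185). PYM1, which takes the complex apart, had one of 0.15, and its call was lost without No Dox replicate 2 (edgeR adjusted p = 0.0891).

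SMG1 belongs to the family of PI3K-related kinases (PIKK). Of 5 other genes of that family 3 fell and none rose, with a median log2 fold change of -0.19. TRRAP fell from 46.2 ± 1.3 to 34.4 ± 1.6 TPM (SD, n = 3), MTOR from 60.7 ± 1.9 to 51.7 ± 0.97 TPM and PRKDC, the DNA-dependent kinase, from 276.2 ± 8.8 to 246.2 ± 3.6 TPM. For ATM and ATR the log2 fold changes were -0.02 and -0.08 and did not pass. Of 7 genes for chaperones that assemble proteins of this family, 4 fell and 1 rose (median -0.15). RUVBL2 fell from 174.3 ± 3.4 to 141.1 ± 5.0 TPM, and TELO2 and RUVBL1 fell by 0.27 and 0.24 on the log2 scale, while RPAP3 rose by 0.13.

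Of 8 accessory genes of NMD, 4 fell and 2 rose (median log2 fold change -0.05). STAU2, whose protein binds double-stranded RNA and recruits UPF1, rose from 24.5 ± 0.57 to 30.8 ± 2.5 TPM (SD, n = 3), while its paralog STAU1 fell from 109.7 ± 0.60 to 100.2 ± 0.49 TPM. The helicase gene MOV10 fell by 0.24 and NBAS by 0.17 on the log2 scale. DHX34, another helicase gene, had a log2 fold change of 0.13 with overlapping TPM, and its call was lost without No Dox replicate 1 or Dox replicate 2 (edgeR adjusted p = 0.113 and 0.118) and on the TPM scale (limma adjusted p = 0.498). Of 8 genes for translation termination and for proteins of the cap and poly(A) tail, 4 fell and 1 rose (median -0.05). The release factor genes ETF1 and GSPT1 fell by 0.17 and 0.14 (ETF1 not on the TPM scale, limma adjusted p = 0.0619) and PABPC4 by 0.20 on the log2 scale, and the cap-binding gene NCBP2 rose by 0.14.

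Of 22 genes for enzymes of mRNA decay, 7 fell and 5 rose (median log2 fold change 0.00). XRN1, the 5′ to 3′ exonuclease that degrades decapped mRNA, rose from 9.58 ± 0.27 to 12.6 ± 0.45 TPM (SD, n = 3). DCP1A of the decapping complex and PAN2 of a deadenylase rose by 0.21 and 0.18 on the log2 scale. TTC37 and SKIV2L, which encode subunits of the Ski complex that feeds mRNA to the exosome, fell by 0.44 and 0.22, and EDC3 by 0.21.

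Among 19 transcripts known as targets of NMD, 7 rose and 5 fell (median log2 fold change -0.03), so these did not move together. GADD45A rose from 27.7 ± 1.2 to 38.2 ± 0.33 TPM (SD, n = 3), DDIT3 from 29.9 ± 1.4 to 41.3 ± 1.1 TPM and the noncoding RNA GAS5 from 381.0 ± 4.6 to 521.8 ± 10.7 TPM. In counts the rise of GAS5 was smaller, with a log2 fold change of 0.30. With a minimum fold of 1.2 only GADD45A and DDIT3 of these targets were called. GADD45A and DDIT3 are also known as stress-induced genes. SNHG15 fell from 96.9 ± 3.4 to 85.0 ± 3.6 TPM, TBL2 from 30.6 ± 0.72 to 28.1 ± 0.54 TPM, and SNHG1 by 0.13 on the log2 scale. With library sizes in place of TMM the medians of the decay enzymes and the targets were 0.04 and 0.02, so the sign of these medians depends on the scaling, and the decay enzymes then had 10 genes up and 3 down.

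**Figure D5:**
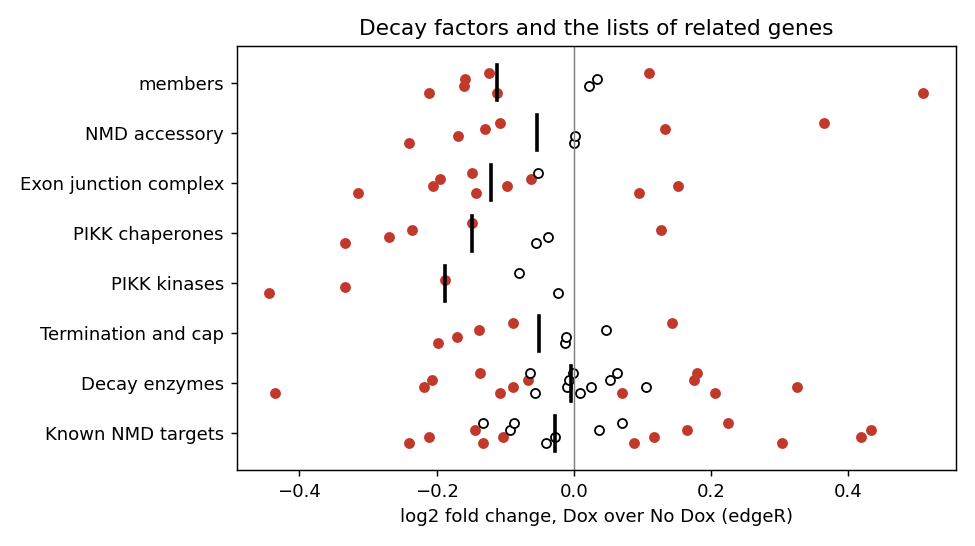
Log2 fold change (x axis, Dox over No Dox, edgeR) of the 9 factors (members) and of the genes in each list (rows), with called genes filled and the median as a black line. Listed genes of the PIKK family that were called lie left of 0, and known targets of NMD lie on both sides.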

How the data were processed

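mRNA of 3 No Dox and 3 Dox samples was sequenced from stranded libraries. The authors trimmed reads with cutadapt, mapped them with STAR to the human genome (GRCh38) and quantified isoforms with RSEM, as the submitters' notes and the study's methods say. Tool versions, annotation release and strand setting were not found in these sources. The deposited expected counts are unnormalized RSEM estimates and need not be whole numbers. The deposited TPM values were scaled by RSEM for isoform length and sample total, and the deposited percent values give each isoform's part in the TPM of its gene. Human coordinates and sequences were not used here.

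Expected counts were summed per gene, rounded and tested with edgeR (4.0.16; TMM, filterByExpr, glmQLFit and glmQLFTest). The 95% intervals are the estimate ± 1.96 SE, a normal approximation that is somewhat narrower than the edgeR test implies. Isoforms were tested with limma-voom and usage with limma diffSplice (limma 3.58.1, Simes p per gene) in R 4.3.3. P-values were adjusted over all features tested (Benjamini-Hochberg, threshold 0.05, two-sided). An adjusted p for an alternative comes from the same tests, or from DESeq2 (1.42.0). The tests were also run on simulated data, with outcomes not given here. Isoforms of a gene share 1 variance in diffSplice. In earlier simulations on these data its share of false calls was above the nominal level. Named were the 9 factors, isoforms of at least 10% of their gene in a group (5% where called), up to 3 rises and 3 falls per list at 5 TPM or more, and pseudogenes with 30 counts. An item of the lists is not reported here. Members and lists were chosen with earlier results of these data known. Replicates were compared by counts and none was a copy of another. Alternatives were other tools, normalizations, filters, units, a 1.2-fold minimum, pseudogene sums, the replicate block and leaving out each sample.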

Additional observations from a re-analysis of the deposited data

How the results depend on the processing

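The induction of RBFOX1 was called under each alternative run (log2 fold change 4.48 to 4.59 in the analyses without 1 sample, hereafter leave-one-out). Of the 9 factors 7 were called, 6 to 7 in leave-one-out (1 to 2 up, 5 down). With a minimum fold of 1.2 (glmTreat) there was 1 (1 up, 0 down), and calls in the lists went from 52 to 7 (leave-one-out 43 to 53) and those of pseudogenes from 2 to 1. Pseudogene calls were 1 by log2(TPM + 0.5), 4 with the replicate block and 2 to 3 in leave-one-out. Isoform calls of the factors were 6, with DESeq2 12 and in leave-one-out 2 to 5. Usage calls were 4, with diffSpliceDGE 1 and in leave-one-out 2 to 4. Mean isoform length did not overlap for 3 genes, for 1 when weighted by expected counts and for 3 to 5 in leave-one-out. Signs turned only for values that had not passed the test. In leave-one-out UPF2 ran from -0.0083 to 0.069, UPF3A from -0.011 to 0.057, SMG1P2 from -0.092 to 0.014, SMG1P4 from -0.21 to 0.0072 and SMG9-210 from -0.023 to 0.063. With library size only, SMG1P2 was at 0.00011 and SMG1P5 at 0.030. Of 964 values of single genes, isoforms and usage under alternatives, 859 kept direction and call, 84 lost and 13 gained a call. The cause was not tested.

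The sample names give a replicate number and do not say whether samples of the same number were paired. Deviations from the group means correlated at 0.041, 0.028 and 0.057 in same-numbered samples, and each sample correlated best with its own number. With the replicate number as a block 9805 genes were called against 9384, and the calls of the 9 factors at gene level stayed at 7. Isoform calls numbered 6 with the block too, but UPF1-207 and SMG8-201 were lost (limma-voom adjusted p = 0.0539 and 0.0749) and UPF1-201 was gained (0.0424).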
